A study of Mus musculus with 12 samples.

Results

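Fetal membranes of mice lacking both biglycan and decorin were compared with wild-type membranes at embryonic day 12 (E12), by RNA sequencing of whole tissue. The comparison takes the 6 libraries labelled E12 out of the 12 of the series, 3 from the double knockout (DKO) and 3 from the wild type (WT), and covers all genes. The DKO tissue is labelled as lacking both genes on a mixed C3H and C57BL/6 strain background, and the WT as C3H, so strain and genotype cannot be told apart. The labels do not say whether replicates came from separate animals or litters, and the p-values measure only the spread between these samples. The 6 libraries held 20240876 to 33065424 counts. The E18 libraries enter the statistical model only as a measure of spread, except in a closing comparison of the 2 stages. Results are given with and without E12 WT 1, which stands apart from the other WT libraries as described next.

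Biglycan and decorin are small leucine-rich proteoglycans, secreted core proteins with chondroitin or dermatan sulfate chains that bind collagen fibrils and hold growth factors such as TGF-beta in the matrix. In fetal membranes they are made mainly by the fibroblasts under the amnion epithelium, where they help set the width and spacing of collagen fibrils and so the strength of the tissue. At mid-gestation the membranes still include a yolk sac, whose endoderm makes plasma proteins and whose blood islands supply the first, primitive red cells.

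The libraries held markers of the labelled tissue. Markers of visceral yolk sac endoderm summed to 93600, 95200 and 97800 CPM (counts per 1000000 counts, at TMM-normalised library sizes) in the DKO libraries, against 194000, 85600 and 84800 CPM in WT 1, 2 and 3. Those of amnion-type epithelium summed to 3380, 3310 and 3790 CPM in the DKO, against 7080, 4860 and 5100 CPM in the WT. The neutrophil list summed to 6.64 to 9.25 CPM in the DKO and to 99.7, 10.9 and 6.65 CPM in the WT. In whole tissue, fewer cells of a type and less RNA per cell cannot be told apart.

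E12 WT 1 lay apart from WT 2 and 3. Embryonic beta-globins made up 82.2, 84.5 and 85.0% of beta-globin counts in the DKO libraries, against 14.8% in WT 1, 95% in WT 2 and 96.9% in WT 3. The 38 genes of the mitosis and DNA replication list were all below every DKO library in WT 1, with a median log2 deviation of -1.91 from the DKO mean, against 0.08 in WT 2 and -0.03 in WT 3. WT 3 differed in another way. Mitochondrial genes held 4.34, 5.07 and 4.19% of counts in the DKO libraries, against 4.09% in WT 1, 7.66% in WT 2 and 21.2% in WT 3. The common biological coefficient of variation was 0.177 within the DKO group, 0.545 within the WT group and 0.334 within WT 2 and 3. By that measure the DKO libraries were closely alike and the WT libraries were not. Ddx3y, a Y-linked gene, was at 0.0986, 0.136 and 62.9 CPM in the DKO and at 62.1, 0.607 and 95 CPM in the WT, so both groups mixed libraries with and without Y-linked counts.

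Both targeted genes were far lower in the DKO. For Bgn, which lies on chromosome X at 73483602 to 73495933 of GRCm38, the DKO libraries had 16.4, 16.2 and 14.3 CPM, against 686, 270 and 357 CPM in the WT. For Dcn, on chromosome 10 at 97479500 to 97518162, the DKO libraries had 5.92, 8.44 and 6.95 CPM, against 762, 235 and 325 CPM in the WT. No DKO library came near a WT library in either gene, and WT 1 was the highest WT library in both. With all libraries the log2 fold changes (DKO over WT) were -4.81 ± 0.36 for Bgn and -5.95 ± 0.67 for Dcn (SE, n = 3 per group, edgeR adjusted p = 0.000595 and 0.0134). Without WT 1 they were -4.32 ± 0.23 and -5.30 ± 0.56 (adjusted p = 3.6e-05 and 0.00533).

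With all libraries kept, 64 of 18153 tested genes were called at an adjusted p under 0.05 by edgeR's quasi-likelihood test, 0.353% of those tested. Of these, 17 rose (0.0936%) and 47 fell (0.259%). All 64 were also called without WT 1. Before adjustment, 4416 genes had a p under 0.05, and no overlap of CPM between the groups was seen for 2843 genes on the higher side (15.7%) and 2619 on the lower side (14.4%).

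The genes that fell had varied functions, among them a growth factor and mitochondrial proteins. Hbegf, a membrane-anchored ligand of the epidermal growth factor receptor, was at 2.4, 2.47 and 3.88 CPM in the DKO, against 14.3, 65.4 and 39.0 CPM in the WT. Even WT 1, its lowest WT library, was above every DKO library. Its log2 fold change was -3.76 ± 0.56 (adjusted p = 0.0305), and -4.15 ± 0.44 without WT 1. Tspo, a cholesterol-binding protein of the outer mitochondrial membrane, was at 3.19, 3.76 and 4.15 CPM in the DKO and at 16.9, 10.9 and 11.2 CPM in the WT, a log2 fold change of -1.81 ± 0.33 (adjusted p = 0.0481). Prdx5, a peroxiredoxin that removes peroxides, was at 53, 56.9 and 50.8 CPM in the DKO and at 108, 109 and 137 CPM in the WT (log2 fold change -1.14 ± 0.19). Ndufb6, a subunit of respiratory complex I, was at 17.7, 15.7 and 16.5 CPM in the DKO and at 40.9, 33.4 and 46.1 CPM in the WT (-1.27 ± 0.17, adjusted p = 0.0211). In each of these 4 genes every WT library was above every DKO library, and only Hbegf spread widely among WT libraries.

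Red-cell transcripts were among the falls. Hba-a1, an adult alpha-globin, was at 154, 499 and 318 CPM in the DKO and at 1529, 2395 and 2894 CPM in the WT (log2 fold change -2.81 ± 0.46, adjusted p = 0.0371). Its near-identical copy Hba-a2 went the other way in WT 2 and 3, at 28.6, 252 and 161 CPM in the DKO against 791, 8.88 and 6.59 CPM in the WT. Reads that align to both copies were not counted, so the division between them is uncertain. Car2, the red-cell carbonic anhydrase that is also made by other cells, was at 32.5, 42.3 and 45.4 CPM in the DKO and at 98.7, 168 and 92.7 CPM in the WT (-1.58 ± 0.29, adjusted p = 0.049).

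A further group of falls were regulators of growth, retinoids and transcription. Cdkn1c, the imprinted cyclin-dependent kinase inhibitor p57, was at 1043, 867 and 952 CPM in the DKO, against 3261, 2054 and 2109 CPM in the WT (-1.38 ± 0.24, adjusted p = 0.0424). Jund, an AP-1 transcription factor, was at 67.9, 89.6 and 70.7 CPM in the DKO, against 208, 147 and 155 CPM in the WT (-1.16 ± 0.20). Dhrs3, an enzyme that turns retinal back to retinol, was at 46, 45.3 and 44.6 CPM in the DKO, against 104, 86.5 and 104 CPM in the WT (-1.11 ± 0.16, adjusted p = 0.0305). The groups did not overlap in any of the 3 genes, and WT 1 was the highest library for Cdkn1c and Jund.

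Of 622 X-linked genes tested 3 fell, 0.482% called on X against 0.353% of all genes, and they were Bgn, Zdhhc9 and Rtl8b. Zdhhc9, a palmitoyltransferase, was at 47.3, 54.0 and 55.0 CPM in the DKO, against 186, 152 and 117 CPM in the WT (-1.54 ± 0.22, adjusted p = 0.0255). Rtl8b, a gene derived from a retrotransposon and located on chromosome X at 53669177 to 53670408, was at 8.51, 8.85 and 9.17 CPM in the DKO, against 19.4, 31.8 and 58.9 CPM in the WT (-2.05 ± 0.36, adjusted p = 0.0424). Rtl8a had 7.23, 8.91 and 7.39 CPM in the DKO and 16.7, 14.2 and 24.2 CPM in the WT, with adjusted p = 0.059 for all libraries and 0.0109 without WT 1. Rtl8a and Rtl8b are similar in sequence, and their counts can exchange reads.

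Other falls were even among the DKO libraries. Nme7, of the nucleoside diphosphate kinase family and the gamma-tubulin ring complex, was at 40.3, 41.1 and 40.4 CPM in the DKO, against 87.0, 116 and 177 CPM in the WT (-1.64 ± 0.26, adjusted p = 0.0366). Named after their values were seen, Mapk13 (the p38-delta kinase of epithelia) was at 22.5, 20.5 and 23.5 CPM in the DKO, against 53.9, 47.0 and 61.1 CPM in the WT (-1.28, adjusted p = 0.0134), and Rhoc, a small GTPase of the actin skeleton, at 92.5, 100.2 and 96.1 CPM in the DKO against 163, 157 and 173 CPM in the WT (-0.77, adjusted p = 0.0391). Of these, Rhoc changed least and was the most even within the WT group, while Nme7 was the most even within the DKO group. Epb41l4aos, a non-coding RNA on the strand opposite Epb41l4a, was at 4.14, 2.95 and 4.07 CPM in the DKO and at 9.47, 9.67 and 14.2 CPM in the WT (-1.58 ± 0.26).

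The genes that rose were fewer and mostly of low abundance. Slfn9, a member of the Schlafen family of interferon-inducible proteins, was at 9.27, 9.32 and 11.7 CPM in the DKO and at 3.44, 2.32 and 3.18 CPM in the WT (log2 fold change 1.76 ± 0.30, adjusted p = 0.0395). F13a1, a transglutaminase chain that crosslinks fibrin and marks tissue macrophages, was at 86.9, 78.3 and 71.6 CPM in the DKO and at 31.8, 31.3 and 29.2 CPM in the WT (1.36 ± 0.21, adjusted p = 0.0366). Xpo4, a nuclear export receptor, was at 9.43, 10.2 and 10.4 CPM in the DKO and at 3.35, 2.82 and 4.06 CPM in the WT (1.55 ± 0.27). In these 3 genes WT 1 lay with WT 2 and 3.

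Other rises were of genes of vesicle traffic and of less studied function. Scoc, a Golgi coiled-coil protein that takes part in autophagy, was at 17.0, 18.8 and 14.2 CPM in the DKO and at 6.17, 4.25 and 6.12 CPM in the WT (1.6 ± 0.26 on the log2 scale). Arl5a, a small GTPase of the Golgi, was at 45.5, 61.9 and 47.8 CPM in the DKO and at 24.0, 21.5 and 17.2 CPM in the WT (1.30). Mtx3, of the mitochondrial import protein family of metaxins, was at 24.5, 21.6 and 25.4 CPM in the DKO and at 11.5, 13.6 and 10.4 CPM in the WT (1.01). Zfp125, Syt14 and Epm2aip1 rose as well, with log2 fold changes of 1.58, 1.01 and 0.94 and no overlap between the groups.

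**Figure D1:**
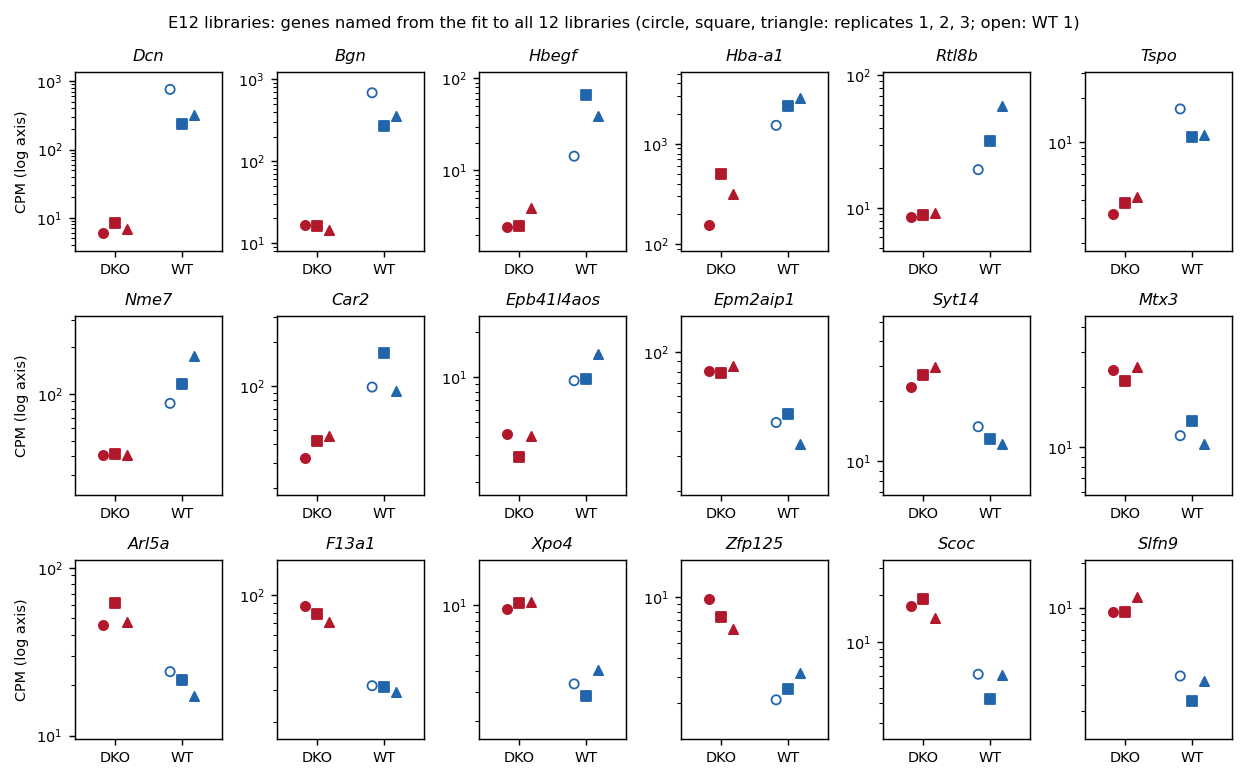
CPM on log axes of the 18 genes named from the fit to all libraries, ordered by log2 fold change, DKO libraries left of WT libraries in each panel and WT 1 as an open circle. The F13a1 values of 71.6 to 86.9 CPM in the DKO lie above 29.2 to 31.8 CPM in the WT, while Hbegf, Bgn and Dcn spread among WT libraries.

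The count of 64 moved with each E12 library. Leaving out E12 DKO 1, 2 or 3 gave 2, 1 and 2 calls, and leaving out WT 2 or WT 3 gave 179 and 9. Leaving out a library at E18, which takes no part in the contrast, gave 6 to 67. When only the E12 libraries were fitted, edgeR called 0 genes, with 3358 at an unadjusted p under 0.05, against 2085 calls by the DESeq2 Wald test and 4719 by limma voom with sample quality weights in all 12 libraries. All 18 genes plotted kept their direction under each of these settings.

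**Figure D2:**
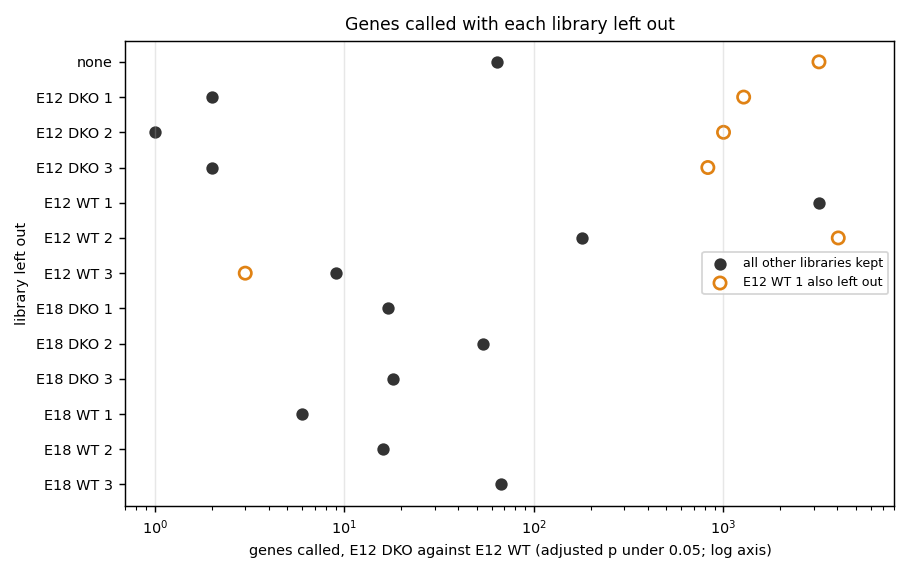
Number of genes called in E12 DKO against E12 WT (log axis) when the library on the vertical axis was left out, with all others kept (filled) or with E12 WT 1 also left out (open). The count was 64 with none left out, 3199 without WT 1, and 3 with WT 1 and WT 3 both left out.

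Without WT 1 the test called 3199 of 18723 genes, 17.1%, of which 1298 rose (6.93%) and 1901 fell (10.2%). WT 1, which was not used in that fit, lay below every DKO library for 679 of the 1298 rises (52.3%, against 41.0% of all genes tested), and above every DKO library for 1006 of the 1901 falls (52.9%, against 39.9%). The count depended on WT 3. With WT 1 and WT 2 both left out, WT 3 alone gave 4044 calls, and with WT 1 and WT 3 both left out, WT 2 alone gave 3, the lone library being assumed to vary like the other groups. Leaving out a DKO library as well as WT 1 gave 829 to 1281 calls. The scale also mattered, since library size alone in place of TMM moved the median of all genes to 0.25 and turned the split to 1911 rises and 891 falls. The list results below refer to the fit without WT 1 unless all libraries are named, and they are to be read against the shares of 6.93% and 10.2%.

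**Figure D3:**
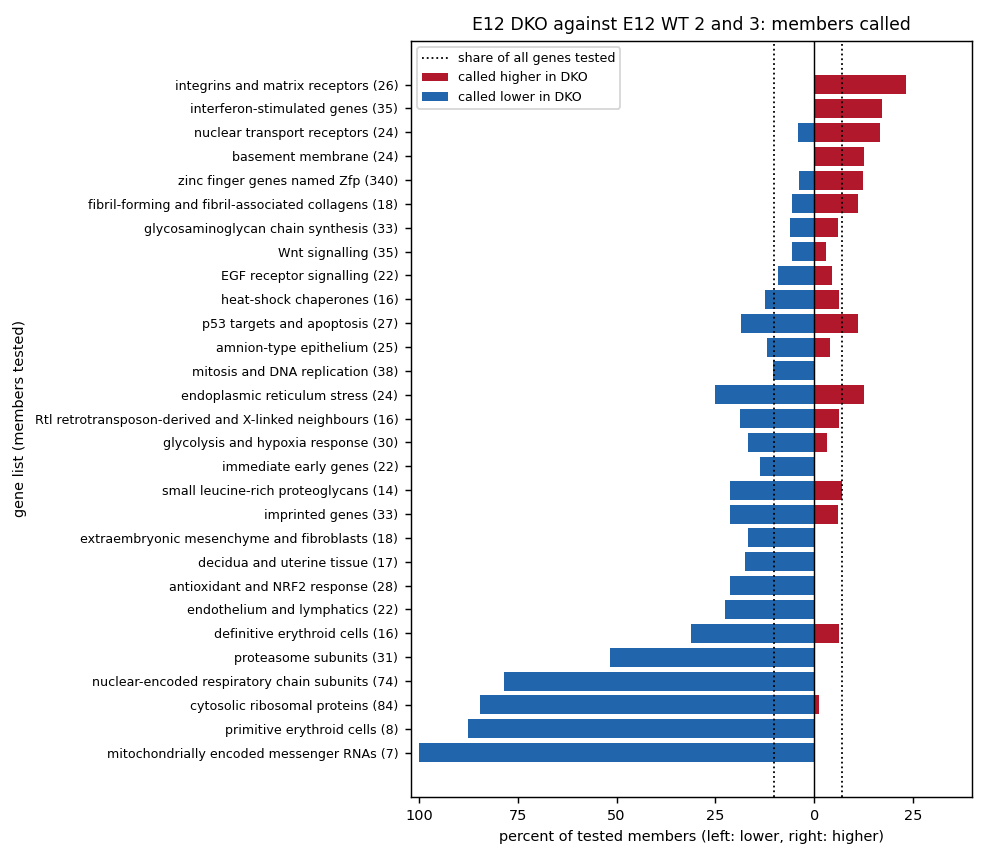
Percent of tested members of each gene list called lower (left) or higher (right) in E12 DKO against E12 WT 2 and 3, for lists with at least 3 calls. Dotted lines mark the shares of all genes tested, 10.2% lower and 6.93% higher, and the mitochondrial, ribosomal, respiratory chain and primitive erythroid lists lie farthest to the left.

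Genes of protein synthesis and respiration fell together. Of 84 cytosolic ribosomal proteins tested, 71 fell and 1 rose, with a median log2 fold change of -1.24 against 0 over all genes tested. Rps16, of the small ribosomal subunit, was at 95.8, 92.0 and 85.8 CPM in the DKO, against 102 CPM in WT 1, 181 CPM in WT 2 and 230 CPM in WT 3 (log2 fold change -1.17 ± 0.15, adjusted p = 0.00668). Rps15 was at 255, 245 and 255 CPM in the DKO, against 303 CPM in WT 1, 550 CPM in WT 2 and 934 CPM in WT 3. In both genes WT 1 was just above the DKO, and WT 3 was the highest. The 1 rise was Rps3a1, with a log2 fold change of 1.65 (adjusted p = 0.0171), a gene with many processed copies whose reads may be divided. With all libraries 0 ribosomal proteins were called, with a median of -0.96, and with WT 3 also left out 0 were called, with a median of -0.86.

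Nuclear-encoded subunits of the respiratory chain followed, with 58 of 74 lower, 0 higher and a median of -1.0. Uqcr10, of complex III, was at 38.1, 35.8 and 36.8 CPM in the DKO, against 35.2 CPM in WT 1, 72.8 CPM in WT 2 and 91.5 CPM in WT 3 (-1.15 ± 0.14, adjusted p = 0.00668). Ndufs7, a complex I subunit, was at 40.1, 38.8 and 33.9 CPM in the DKO, against 36.0, 78.0 and 109 CPM in WT 1, 2 and 3 (-1.31 ± 0.18). WT 1 lay among or below the DKO libraries in both, unlike in Ndufb6 above. For this list WT 1 was below every DKO library in 47 of the 74 genes, WT 2 was above every DKO library in 69 and WT 3 in 64. With all libraries 1 of the 74 was called lower, with a median of -0.73. With 1 DKO library left out as well as WT 1, 36 to 42 were lower. With WT 3 left out as well as WT 1, the median was -0.71.

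Of 13 mitochondrially encoded mRNAs listed, 7 were tested and the others were not analysed here, and the 7 fell, with a median of -2.01. The mt-Co1 mRNA, for the catalytic subunit of complex IV, was at 10226, 12819 and 10483 CPM in the DKO, against 14522 CPM in WT 1, 24451 CPM in WT 2 and 65840 CPM in WT 3 (-2.01 ± 0.46, adjusted p = 0.0178). WT 3 was the highest library, and with WT 3 also left out 0 of 7 were called at a median of -0.81. With any 1 DKO library left out in its place, 0 of 7 were called as well, at medians of -1.95, -2.12 and -1.97. When all mitochondrial and globin genes were left out of the table, 3169 genes were called without WT 1, of which 3162 were among the 3199. The part of the mitochondrial share of WT 3 in the other lists was not tested. Proteasome subunits were lower in 16 of 31 cases, with a median of -0.44. This count was 6 with library size alone, at a median of -0.18, and 9 with any 1 DKO library left out. Among them Psmb3, a subunit of the core particle, was at 35.6, 36.2 and 30.1 CPM in the DKO, against 33.8, 75.6 and 147 CPM in WT 1, 2 and 3 (-1.71 ± 0.26).

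Promoters of these groups are shown because the genes moved together and because both motifs are textbook elements of housekeeping promoters. The ETS family core CCGGAAG was searched on both strands of the 300 bases from 250 before to 50 after each RefSeq gene start (GRCm38.p6). It was present in 25 of the 62 ribosomal protein promoters that could be matched (40.3%), in 15 of 62 respiratory chain promoters (24.2%) and in 9 of 25 proteasome promoters (36.0%). It was also present in 60 of 278 promoters of the Zfp list (21.6%), in 25.8% of those of all genes called lower and in 17.4% of those called higher, against 9.12% of 27025 promoters in the table and 15.7% of those of tested genes. The NRF1 motif, a palindromic GC-rich element searched likewise, was present in 16 of 62 respiratory chain promoters (25.8%), in 6 of 25 proteasome promoters (24.0%), in 25 of 278 Zfp promoters (8.99%) and in 4 of 62 ribosomal protein promoters (6.45%), against 4.78% of all promoters and 8.85% of those of tested genes. Each motif was counted whether or not a match of the other lay across it, and a match is no evidence of binding. The stretches below are the upstream 30 bases around the match in the 2 genes of each list with the lowest p that hold the motif in a single listed promoter, with the motif in capitals.
Rpl37 (chr15:5116579-5116608, plus strand): accaagacccgCCGGAAGtagtttcctggg
Rps7 (chr12:28635954-28635983, minus strand, motif on the opposite strand): actcttttcagaagagCTTCCGGtttccac
Atp5h (chr11:115420041-115420070, minus strand): gaccccgacgGCGCAGGCGCcgcgcccgcc
Atp5k (chr5:108434430-108434459, minus strand): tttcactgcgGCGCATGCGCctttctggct
Rpl37 had a log2 fold change of -1.79 and Rps7 of -1.15, and the ATP synthase subunits Atp5h and Atp5k had -1.41 and -1.22 (all called).

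Exon length moved with these results. Among genes with a mean of at least 5 CPM, the DKO libraries stayed near their own mean in every bin of exon length. The median log2 deviation from the DKO mean in WT 3 was 1.01 for genes with under 1000 bp of exons, 0.58 from 1000 bp to under 2000 bp, 0.13 from 2000 bp to under 4000 bp and -0.23 for 4000 bp or more. In WT 2 the same medians were 0.64, 0.43, 0.15 and -0.14, and in WT 1 they were 0.13, 0.09, 0.03 and -0.02. Of the genes under 1000 bp, 50.5% fell and 1.51% rose, and of those of 4000 bp or more 5.0% fell and 13.4% rose. With all libraries, the median exon length was 5409 bp for the 17 rises and 1668 bp for the 47 falls, against 3475 bp for all genes tested. The ribosomal protein list had a median of 1637 bp, the respiratory chain list 1514 bp, and the part of exon length in the list results was not tested.

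**Figure D4:**
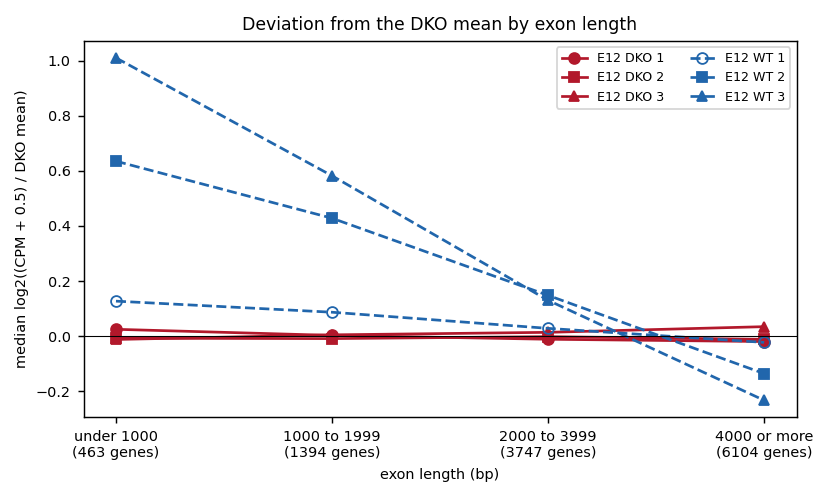
Median log2 ratio of CPM + 0.5 to the DKO mean by exon length in each E12 library, with DKO libraries as solid lines and WT libraries as dashed lines. The DKO libraries stay near 0, while with rising length WT 3 runs between 1.01 and -0.23, WT 2 between 0.64 and -0.14 and WT 1 between 0.13 and -0.02.

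The Zfp and nuclear transport lists had more rises than falls. Other lists of long genes went either way. Basement membrane genes and matrix receptors had more rises, and imprinted and endothelial genes had more falls. Of 340 genes named Zfp, mostly zinc finger repressors with KRAB domains, 42 rose (12.4%) and 13 fell (3.82%), with a median of 0.14. With 1 DKO library also left out, 14 to 16 rose and 3 to 6 fell. With library size alone in place of TMM, 60 rose and 4 fell, at a median of 0.39. With WT 3 also left out the median was 0.21. Zfp871 was at 12.8, 15.1 and 16.6 CPM in the DKO, against 6.91 CPM in WT 1, 2.64 CPM in WT 2 and 1.29 CPM in WT 3 (log2 fold change 2.90 ± 0.52, adjusted p = 0.00907). Zfp593, a short member with 2088 bp of exons, was lower instead, at 7.03, 7.97 and 6.70 CPM in the DKO against 8.15, 15.7 and 24.2 CPM in the WT (-1.46). Of 24 nuclear transport receptors, 4 rose, Xpo4, Xpo5, Ipo8 and Tnpo1, and Ipo4 fell. The median exon length was 4112 bp for the Zfp list and 7223 bp for the transport receptors.

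Most genes of the primitive erythroid list fell. Of its 8 genes 7 fell, with a median log2 fold change of -2.46, and of 16 of definitive cells 5 fell and 1, Hba-a2, rose. Hbb-bh1, an embryonic beta-globin, was at 23.6, 77.1 and 54.9 CPM in the DKO, against 55.7 CPM in WT 1, 760 CPM in WT 2 and 450 CPM in WT 3 (-3.54 ± 0.52, adjusted p = 0.00697). Hba-x, the embryonic alpha-type globin, was at 138, 587 and 360 CPM in the DKO, against 288, 3868 and 2474 CPM in WT 1, 2 and 3 (-3.13 ± 0.46). WT 1 lay among the DKO libraries in both genes. All globins together made up 0.115, 0.461 and 0.290% of counts in the DKO, against 0.643, 1.67 and 1.15% in the WT, so DKO 1 held the smallest globin share of the 6. With WT 3 also left out, 0 primitive erythroid genes were called at a median of -2.60.

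Among small leucine-rich proteoglycans other than the targeted pair, Lum fell and Prelp rose, and 10 of the 14 tested were not called. Lum, lumican, which like decorin binds collagen fibrils, was at 405, 434 and 438 CPM in the DKO, against 490 CPM in WT 1, 695 CPM in WT 2 and 833 CPM in WT 3 (-0.84 ± 0.22, adjusted p = 0.0266), with no overlap. Prelp, a heparin-binding member of basement membranes, was at 31.2, 33.5 and 30.2 CPM in the DKO, against 101 CPM in WT 1, 15.3 CPM in WT 2 and 10.9 CPM in WT 3 (1.27 ± 0.22, adjusted p = 0.00893). WT 1 was on the opposite side from WT 2 and 3, and with all libraries Prelp had -0.42 (adjusted p = 0.717). Aspn, the asporin gene, was at 1.15, 3.15 and 2.24 CPM in the DKO and at 46.5, 1.18 and 2.41 CPM in the WT, and Ogn (osteoglycin) at 18.3, 18.7 and 23.9 CPM in the DKO, against 29.2, 16.1 and 22.0 CPM in the WT. Fmod, which encodes fibromodulin, was at 112, 153 and 104 CPM in the DKO and at 53.3, 88.3 and 109 CPM in the WT (0.33 ± 0.29, adjusted p = 0.455). Neither Ogn nor Fmod separated the groups.

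Collagens and basement membrane genes changed singly. Of 18 fibril-forming and fibril-associated collagens, Col12a1 and Col6a3 rose and Col9a1 fell. Col12a1, whose product coats collagen I fibrils, was at 484, 492 and 793 CPM in the DKO, against 235, 201 and 116 CPM in the WT (1.90 ± 0.43, adjusted p = 0.0171), with no overlap and with adjusted p = 0.0703 when WT 1 was kept. Col6a3 was at 302, 430 and 447 CPM in the DKO, against 839, 188 and 167 CPM in WT 1, 2 and 3, so WT 1 was highest of all (1.15 without it, -0.02 with it). Col1a1, the main fibrillar collagen, was at 5255, 6737 and 6602 CPM in the DKO and at 4010, 6864 and 10930 CPM in the WT (-0.52, adjusted p = 0.359), which overlap. Of 24 basement membrane genes Lamb3, Lamc1 and Agrn rose (12.5%). Lamb3, the beta chain of epithelial laminin-332, was at 72.3, 78.1 and 113 CPM in the DKO, against 397, 33.2 and 26.3 CPM in WT 1, 2 and 3 (1.57 without WT 1, -0.79 with it).

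Receptors for matrix were called higher in 6 of 26 cases, 23.1%, with 0 lower. They were Itga2, Itgav, Dag1, Itga8, Itga6 and Itga4. With any 1 DKO library also left out, 1 of 26 was called. Itgav, the alpha chain of integrins that bind RGD motifs and release latent TGF-beta, was at 96.0, 101 and 111 CPM in the DKO, against 218 CPM in WT 1, 52.1 CPM in WT 2 and 42.1 CPM in WT 3 (1.13 ± 0.15, adjusted p = 0.00676). Itga2, of the collagen receptor alpha2beta1, was at 1.97, 1.90 and 2.66 CPM in the DKO and at 1.76, 0.607 and 0.177 CPM in the WT. Only Itga2 of this pair put WT 1 on the same side as WT 2 and 3. With all libraries 0 of the 26 were called, with a median of -0.14, and WT 1 was above every DKO library in 20 of 26.

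Enzymes and carriers of matrix assembly moved in small numbers in either direction. Loxl3, a lysyl oxidase that crosslinks collagen and elastin, was at 22.3, 20.3 and 18.7 CPM in the DKO, against 25.1, 32.5 and 65.1 CPM in the WT (-1.25 ± 0.28, adjusted p = 0.0165), and Ppib, a prolyl isomerase of collagen folding, was also called lower at -0.94. Mfap2 and Efemp2, microfibril and elastic fibre proteins, fell by 1.19 and 0.88 on the log2 scale. WT 1 was below every DKO library in both, and with it neither was called (adjusted p = 0.363 and 0.394). Mmp2, gelatinase A, was at 120, 112 and 121 CPM in the DKO, against 187 CPM in WT 1, 58.5 CPM in WT 2 and 54.6 CPM in WT 3 (1.06 ± 0.24), while the inhibitor Timp1 was at 6.05, 6.95 and 5.76 CPM in the DKO, against 8.24, 15.0 and 30.4 CPM in the WT (-1.85 ± 0.50, adjusted p = 0.0312). With WT 1 kept neither was called, at 0.23 for Mmp2 (adjusted p = 0.763) and -1.51 for Timp1 (adjusted p = 0.13). Of 33 genes of glycosaminoglycan chain synthesis, Ndst1 and Fam20b rose and B3gat3 and Has3 fell, 6.06% each way.

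TGF-beta and growth factor pathways gave few calls. Of 25 TGF-beta pathway genes the receptor Tgfbr1 and the inhibitor Skil rose (8.0%, against 6.93% of all genes tested). Tgfbr1 was at 189, 172 and 223 CPM in the DKO and at 114, 124 and 101 CPM in the WT, a log2 fold change of 0.80 ± 0.18 (adjusted p = 0.0159), with WT 1 between WT 2 and 3 and adjusted p = 0.0633 when it was kept. The other 23 were not called. In the EGF receptor list Hbegf and the feedback inhibitor Spry1 fell, Adam10, a sheddase, rose, and 19 others were not called. Areg, another ligand of this receptor, had 0 counts in all 3 DKO libraries and 1.5, 0.0357 and 0.235 CPM in the WT (adjusted p = 0.051, and 0.0791 with all libraries). Igfbp2, a binding protein of insulin-like growth factors, was at 47.7, 32.7 and 36.5 CPM in the DKO, against 18.1 CPM in WT 1, 93.2 CPM in WT 2 and 136 CPM in WT 3 (-1.55 ± 0.38), so WT 1 was on the other side. In the Wnt list Rspo1 and Tcf7l1 fell (5.71%, against 10.2% of all genes tested) and Apc rose (2.86%, against 6.93%), out of 35.

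Retinoid and prostaglandin lists held falls near the share of all genes tested. They were 2 of 19 (10.5%) and 2 of 24 (8.33%), against 10.2%. Beside Dhrs3, the retinoic acid receptor Rara was at 48.1, 51.3 and 52.6 CPM in the DKO, against 72.0, 71.9 and 89.9 CPM in the WT (-0.67 ± 0.21, adjusted p = 0.0492). Crabp2, which carries retinoic acid to the nucleus, was at 1.15, 0.915 and 0.415 CPM in the DKO, against 6.03, 5.07 and 6.83 CPM in the WT (-2.84 ± 0.94, adjusted p = 0.0612). The groups did not overlap in either gene, and only Rara passed the test. Ptger1, a prostaglandin E2 receptor, was at 67.3, 64.8 and 57.6 CPM in the DKO and at 82.6, 82.1 and 97.9 CPM in the WT (-0.51 ± 0.14, adjusted p = 0.0309). Ptges3, a co-chaperone with prostaglandin E synthase activity, fell by 0.81 on the log2 scale with WT 1 below every DKO library, and 22 others of the parturition list were not called.

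Some interferon-stimulated genes were called higher, but WT 1 was mostly above the DKO. Of 35 genes 6 rose (17.1%, against 6.93% of all genes tested) and 0 fell: Ifih1, Parp12, Oasl1, Parp14, Parp9 and Irf9. With 1 DKO library also left out, 2 to 4 rose. Ifih1, the RNA sensor MDA5, was at 8.38, 9.36 and 16.4 CPM in the DKO, against 19.6 CPM in WT 1, 4.50 CPM in WT 2 and 3.47 CPM in WT 3 (1.51 ± 0.35, adjusted p = 0.0179). Parp14, a mono-ADP-ribosyltransferase, was at 19.9, 18.0 and 26.1 CPM in the DKO, against 46.9, 8.38 and 7.53 CPM in WT 1, 2 and 3. In both, WT 1 was the highest of the 6 libraries, and it was above every DKO library in 29 of the 35 genes. With all libraries kept 0 of 35 were called and the median was -0.22, against 0.35 without WT 1. Slfn9 and Slfn5 rose among 8 Schlafen genes, and Slfn5 was at 7.69, 7.05 and 6.54 CPM in the DKO against 7.57, 1.32 and 0.647 CPM in the WT.

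Macrophage markers were at 698 to 718 CPM in sum in the DKO, against 1260, 616 and 717 CPM in the WT. Adgre1, the macrophage marker F4/80, was at 6.97, 8.24 and 6.62 CPM in the DKO, against 2.73, 2.39 and 1.59 CPM in the WT (1.86 ± 0.42, adjusted p = 0.0167), and F13a1 rose with it. The other 18 of the 20 macrophage genes were not called, and the list median was -0.07. WT 1, 2 and 3 were above every DKO library in 7, 5 and 12 of the 20 genes. They were below every DKO library in 12, 10 and 6. Laptm5, a lysosomal protein of blood cells, was at 24.9, 27.6 and 25.5 CPM in the DKO and at 13.3, 17.9 and 16.9 CPM in the WT (0.58 ± 0.23, adjusted p = 0.102). In the cytokine and Toll-like receptor list Tlr7, an endosomal sensor of RNA, rose, and Ccl3, a macrophage chemokine, fell.

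Stress and immediate early genes gave mostly falls. Of 22 immediate early genes Ier2, Jund and Atf3 fell (13.6%, against 10.2% of all genes tested) and 0 rose. Atf3, a stress-induced transcription factor, was at 12.7, 14.9 and 17.6 CPM in the DKO, against 51.1, 33.5 and 28.5 CPM in the WT (-1.04 ± 0.31, adjusted p = 0.0456). Fos, the most volatile member, was at 10.2, 12.1 and 15.7 CPM in the DKO, against 161 CPM in WT 1, 20.8 CPM in WT 2 and 8.18 CPM in WT 3. WT 1 was above every DKO library in 21 of the 22 genes. In the endoplasmic reticulum stress list 6 of 24 fell, Sdf2l1, Manf, Creld2, Atf4, Ddit3 and Ppp1r15a, and 3 rose, Atf6, Edem1 and Sel1l. Ddit3, the transcription factor CHOP, was at 8.97, 8.78 and 8.39 CPM in the DKO, against 19.5, 17.2 and 21.1 CPM in the WT (-1.13 ± 0.24, adjusted p = 0.0139), while Edem1, which marks misfolded glycoproteins for breakdown, was at 126, 129 and 130 CPM in the DKO, against 84.6, 86.2 and 67.6 CPM in the WT (0.74 ± 0.17). The groups did not overlap in either gene, and neither passed the test when WT 1 was kept (adjusted p = 0.0591 and 0.0707).

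Some antioxidant and glycolytic enzymes fell. Of 28 genes of the antioxidant list 6 fell (21.4%) and 0 rose: Prdx5, Prdx2, Sod1, Txn1, Prdx4 and Sod2. Txn1, thioredoxin, was at 138, 151 and 140 CPM in the DKO, against 110 CPM in WT 1, 256 CPM in WT 2 and 309 CPM in WT 3 (-0.98 ± 0.16, adjusted p = 0.00782). WT 1 was below the DKO in Txn1 and above it in Prdx5. Of 30 glycolysis and hypoxia genes Aldoa, Gapdh, Slc2a1, Slc16a3 and Egln1 fell and Ero1l rose. Aldoa, aldolase A, was at 477, 520 and 443 CPM in the DKO, against 493, 1051 and 1140 CPM in WT 1, 2 and 3 (-1.19 ± 0.21, adjusted p = 0.00893), and the lactate carrier Slc16a3 was at 28.6, 30 and 24.4 CPM in the DKO, against 29.0, 92.1 and 84.0 CPM in the WT (-1.67 ± 0.40). WT 1 was level with the DKO in these 2 genes. Among 25 cholesterol synthesis genes Idi1 rose and Nsdhl fell.

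Cell-cycle and imprinted genes gave a mixed picture. Of 38 genes of mitosis and DNA replication 4 fell, Ung, Cdk1, Tyms and Mcm3, with a median of 0.01. With library size alone in place of TMM, 0 of them fell and 1 rose. Mki67, a marker of cycling cells, was at 278, 255 and 279 CPM in the DKO, against 71.3 CPM in WT 1, 268 CPM in WT 2 and 267 CPM in WT 3, so only WT 1 stood apart. Of 33 imprinted genes 7 fell, Cdkn1c, Kcnq1ot1, Ndn, Snrpn, Gnas, H13 and Tssc4, and 2 rose, Peg3 and Rian. Gnas was at 1202, 1218 and 1210 CPM in the DKO, against 1903, 2115 and 4308 CPM in the WT (-1.40 ± 0.31, adjusted p = 0.0158), and Peg3, an imprinted zinc finger gene with 13324 bp of exons, was at 1404, 1668 and 1561 CPM in the DKO, against 1992 CPM in WT 1, 962 CPM in WT 2 and 624 CPM in WT 3 (0.96). Of 27 genes of the p53 list 5 fell, Bax, Bbc3, Gadd45a, Bik and Cdkn2a, and 3 rose, Mdm2, Pmaip1 and Zmat3.

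Markers of the cell types of the membranes moved modestly. In the amnion-type epithelium list Krt18, Krt7 and Tfap2a fell and 1 other gene rose, out of 25. The falls were 12.0% of the list, against 10.2% of all genes tested. Krt18, a keratin of simple epithelia, was at 652, 677 and 780 CPM in the DKO, against 1782, 1202 and 1672 CPM in the WT (-1.03 ± 0.22, adjusted p = 0.0154), and Krt7 at 364, 349 and 421 CPM in the DKO, against 1029, 606 and 683 CPM in the WT (-0.77 ± 0.22, adjusted p = 0.039). The groups did not overlap for either keratin. In the mesenchyme list Vim, Bmp4 and Hand1 fell out of 18. Vim, vimentin, was at 209, 251 and 219 CPM in the DKO, against 884, 386 and 733 CPM in the WT (-1.30 ± 0.35, adjusted p = 0.0306). The summed mesenchyme list, which includes the collagens, was at 12700 to 15600 CPM in the DKO and at 13200 to 20800 CPM in the WT, which overlap.

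Of 22 endothelial genes 5 fell, Egfl7, Esam, Cldn5, Plvap and Robo4. Esam, an adhesion molecule of endothelial junctions, was at 9.6, 10.7 and 11.6 CPM in the DKO, against 26.6, 28.6 and 20.6 CPM in the WT (-1.21 ± 0.31, adjusted p = 0.0275). For 10 of the 22 the DKO lay below the WT with no overlap, against 14.4% of all genes tested. None of the 22 yolk sac endoderm genes was called. The abundant fetal plasma protein gene Afp was at 59671, 60768 and 64924 CPM in the DKO, against 107540 CPM in WT 1, 51782 CPM in WT 2 and 44908 CPM in WT 3 (0.36, adjusted p = 0.5). Trophoblast markers summed to 116 to 170 CPM in the DKO, against 70.4, 431 and 244 CPM in the WT, and the list of decidua and uterine tissue to 579 to 663 CPM in the DKO, against 1650, 996 and 1460 CPM in the WT, a list that includes Dcn itself.

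The remaining lists held few calls. Of 16 heat-shock chaperones Hsph1 rose and Hspe1 and Hsf1 fell, and of 24 coagulation genes F13a1 and F8 rose. Of 17 genes of decidua and uterine tissue Dcn, Cebpb and Cryab fell and 0 rose, and of 19 trophoblast genes Hand1 fell. Lamc1 rose among 12 parietal endoderm genes, Synpo2 among 14 of muscle and Nes among 10 of neural tissue, and of 10 cartilage genes Acan rose and Col9a1 fell. Gp9 fell among 9 mast cell and platelet genes and Krt10 among 6 of cornifying epidermis. The neutrophil, lymphocyte and mammary lists had 0 calls out of 7, 3 and 2.

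**Figure D5:**
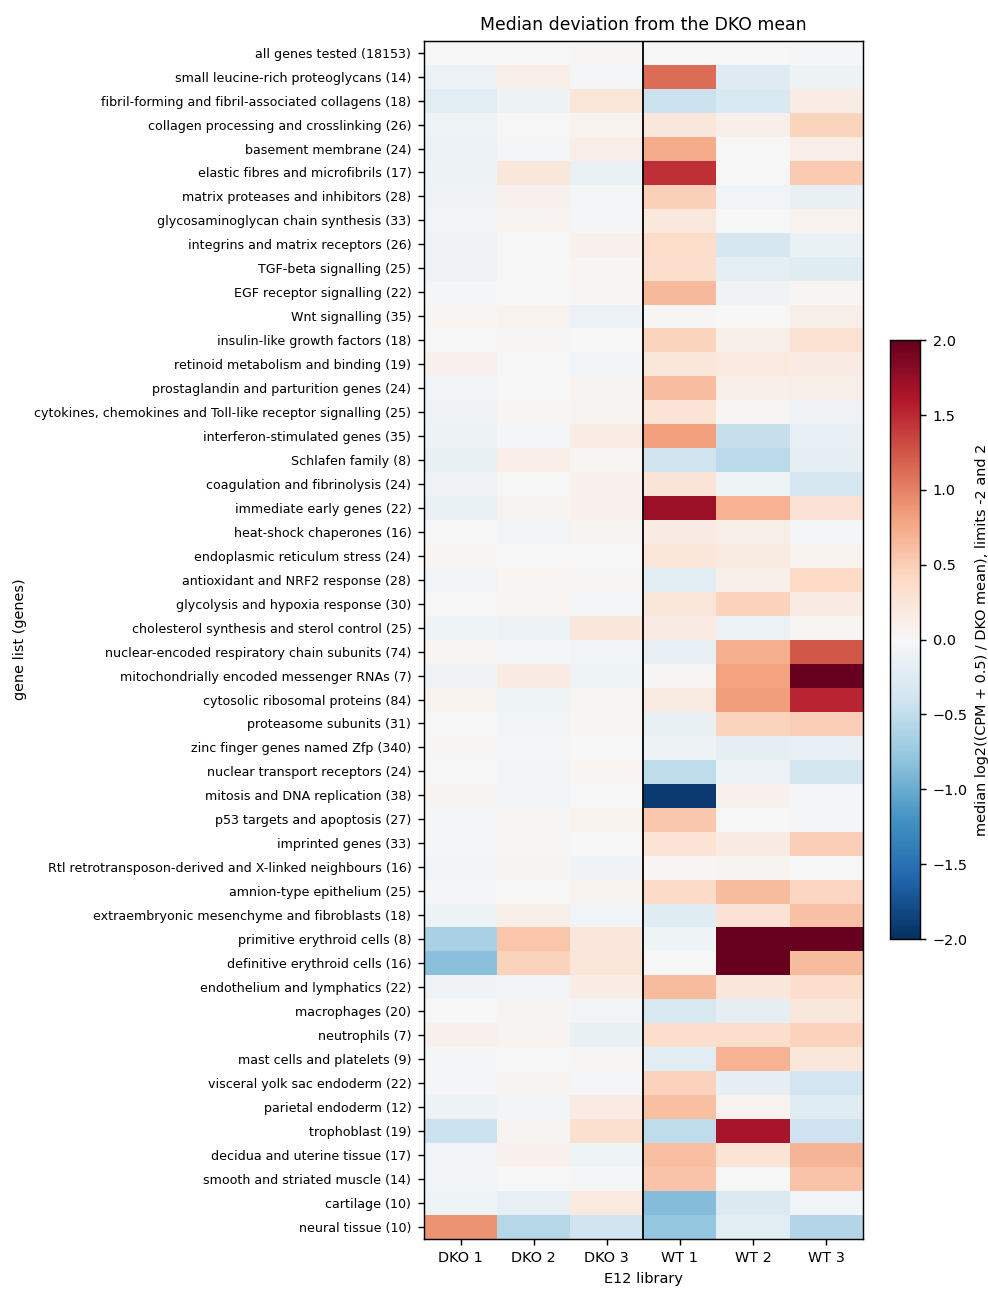
Median log2 ratio of CPM + 0.5 to the DKO mean over the genes of each list in the 6 E12 libraries, DKO left of WT, with colours limited at -2 and 2 and the number of genes in brackets. WT 2 and 3 are above the DKO in the ribosomal (0.84 and 1.53) and respiratory chain (0.71 and 1.24) lists, where WT 1 is at 0.17 and -0.17.

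The largest rises without WT 1 that also left no overlap over all 6 libraries were of genes with varied functions. The gene listed as ccdc198 had the highest fold change, at 5.49, 8.1 and 21.0 CPM in the DKO, against 1.98, 1.32 and 0.353 CPM in the WT (log2 fold change 3.72 ± 0.77, adjusted p = 0.0131), and Zfp871 above belongs to the same set. Gpam, the first enzyme of triglyceride synthesis in mitochondria, was at 77.2, 78.8 and 104 CPM in the DKO, against 65.4 CPM in WT 1, 18.3 CPM in WT 2 and 4.83 CPM in WT 3 (log2 fold change 2.89 ± 0.82, adjusted p = 0.0376). Ugt1a7c, a glucuronosyltransferase, was at 39.1, 46.4 and 46.9 CPM in the DKO and at 15.9, 9.74 and 2.06 CPM in the WT (2.88). Tdg, the DNA glycosylase of active demethylation, was at 23.0, 21.8 and 25.9 CPM in the DKO and at 8.81, 5.24 and 1.35 CPM in the WT (2.80 ± 0.49, adjusted p = 0.00863). WT 3 was the lowest library in each of Gpam, Ugt1a7c and Tdg, and with all libraries none of these 3 was called (adjusted p = 0.273, 0.0947 and 0.0712). B3gnt3, Slc10a5, Mfsd4a, Pnp2, Adamts12, Lmbrd2 and Pdpr also rose, with log2 fold changes of 2.45 to 3.39 under the same conditions.

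Among the largest falls without WT 1 were a muscle troponin, mitochondrial tRNAs and a processed pseudogene. Tnni2, a fast-muscle troponin, was at 2.37, 1.8 and 2.35 CPM in the DKO, against 9.25, 13.6 and 26.5 CPM in the WT (-3.19 ± 0.74, adjusted p = 0.0188). The mitochondrial tRNA genes mt-Ta and mt-Tp fell by 3.01 and 2.44 on the log2 scale, with WT 3 at 44.7 and 334 CPM the highest library of each. Rpl15-ps2, a processed pseudogene, had 0 counts in all 3 DKO libraries and 2.47, 24.9 and 22.2 CPM in the WT. The floor was set at 3 counts in 1 DKO library (0.102 CPM), and the WT mean was 16.6 CPM. Rpl15-ps2 was thus at least 163-fold lower in the E12 DKO. This value is uncertain because reads may belong to the parent gene. The order of the groups was also the opposite at E18, as given below. Psmg4, a proteasome assembly chaperone, fell by 2.57 on the log2 scale.

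The number of called genes near the targeted loci was counted, without a test. With all libraries, 0 of 99 tested genes within 10 Mb of Bgn and 1 of 78 within 10 Mb of Dcn were called, that one being the predicted gene Gm4925, named after its value was seen. It was at 0.0986, 0.169 and 0.277 CPM in the DKO and at 6.43, 4.14 and 2.47 CPM in the WT. Without WT 1, 23 of 103 genes near Bgn (22.3%) and 17 of 80 near Dcn (21.2%) were called, against 17.1% of all genes tested. Over chromosomes the share called without WT 1 was 14.8 to 19.9% for the autosomes, 16.1% for X and 80.0% for the mitochondrial genome.

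The genes called at E12 with all libraries were mostly in the opposite order at E18. Of the 17 rises called with all libraries, 0 were higher in every E18 DKO library than in every library labelled E18 WT (27.8% of all genes tested were), and 16 were lower in every one (94.1%, against 29.1%). Of the 47 falls, 4 were lower in every E18 DKO library (8.51%, against 29.1%) and 39 were higher in every one (83.0%, against 27.8%). Among the calls without WT 1 this was weaker, with 21.1% of rises and 20.5% of falls in the same order (against 27.4 and 28.9% of all genes tested) and 35.7 and 38.6% in the opposite one (against 28.9 and 27.4%). The E18 libraries entered the estimate of spread behind all these calls. Called genes are therefore more apt to be even within the E18 groups, and the shares of called and of all genes are not fully alike. The E18 DKO libraries had 160, 123 and 208 CPM of Nme7, against 44.6, 40.6 and 42.6 CPM for the WT at that age. They had 13.4, 17.2 and 10.8 CPM of Arl5a, against 42.6, 50.5 and 40.7 CPM for the WT at that age. Both genes thus had opposite orders at the 2 ages. So did Rpl15-ps2, called lower at E12 without WT 1. At E18 it was at 6.38, 0.0853 and 11.8 CPM in DKO 1, 2 and 3. WT 1, 2 and 3 of that age had 0, 0.0586 and 0 CPM of it. Whether its E12 fall goes with genotype was not tested. Bgn and Dcn, in contrast, were lower in the DKO at both stages. Among beta-globin counts the embryonic share was 1.33 to 2.67% in the E18 DKO, against 81.3, 87.7 and 74.7% in the WT of that age, so the stage of those WT libraries is in doubt, and genotype and stage cannot be told apart in that comparison.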

How the data were processed

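RNA from fetal membranes was sequenced by the authors and deposited as raw counts per gene. Reads were trimmed with Trimmomatic 0.36, aligned to GRCm38 with STAR 2.4.2a and counted with Subread 1.5.0, per the submitters' processing notes. Counts used the Ensembl release 86 annotation and strand option 2, with no multi-mapping reads, per the file headers. Counts of 11 libraries were read from their own files, and those of E12 DKO 1 from the deposited table of all 12.

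The 12 libraries were fitted with edgeR 4.0.16 (R 4.3.3), using its default filter on low counts, TMM scaling and the quasi-likelihood test for E12 DKO against E12 WT, with and without E12 WT 1. P-values were adjusted over all tested genes by Benjamini-Hochberg, with a threshold of 0.05. The fit was checked on simulated data with a spread per gene shared by all groups, so unequal spreads like those of the E12 groups were not covered. CPM are at TMM-scaled library sizes. Alternatives included DESeq2 1.42.0, limma 3.58.1 voom, other scaling and filters, and left-out libraries.

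The members and the 53 gene lists were chosen with earlier results of these data known. Genes were named if called, at a mean of 5 CPM or more, without overlap between the 6 libraries and with a conventional symbol, as the 10 largest rises and falls with all libraries and the 12 largest without WT 1. Of each list, the 4 lowest-p members at most, any member called with all libraries and all small leucine-rich proteoglycans were named as well. Some genes that met the rule are not reported here. Afp, Col1a1, Fos and Mki67, and members named to account for small counts, fall outside the rule. Promoter sequences came from RefSeq (GRCm38.p6).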

Additional observations from a re-analysis of the deposited data

Results flagged for a closer look

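For 16 of the 18 genes named from the fit to all libraries, the DKO effect at E18 differed from that at E12 by edgeR's test of the difference itself, at an adjusted p under 0.05. The value given for each is the E18 effect minus the E12 effect on the log2 scale. Genes that fell at E12 had positive differences, of 5.57 for Hbegf, 3.64 for Rtl8b, 3.58 for Nme7, 3.38 for Tspo, 3.2 for Car2, 2.6 for Epb41l4aos and 1.29 for Bgn. Genes that rose at E12 had negative differences, of -2.99 for Arl5a, -2.81 for Slfn9, -2.67 for Xpo4, -2.45 for Scoc, -2.4 for Mtx3, -2.13 for Epm2aip1, -2.12 for Zfp125, -1.95 for Syt14 and -1.74 for F13a1. Over all 18153 genes tested, 7600 differed in this way. The 18 genes were chosen by their E12 effect, which also enters the difference with opposite sign. The direction of each difference was thus largely set by that choice. Dcn (-0.65, adjusted p = 0.515) and Hba-a1 (1.32, adjusted p = 0.103) did not pass the test. The stage of the libraries labelled E18 WT is in doubt from their embryonic beta-globin share, and its part in these differences was not tested.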

How the results depend on the processing

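With all libraries, the 64 calls became 2085 with the DESeq2 Wald test, 4719 with voom and sample quality weights, 0 when only the E12 libraries were fitted, 5 with the replicate block, 4 with a Y-linked covariate and 3 against a 2-fold threshold. They ranged from 1 to 3199 with 1 library left out. The split turned from 17 higher and 47 lower to 41 higher and 14 lower with library size alone, which moved the median of all genes to 0.22. Without E12 WT 1, the 3199 calls became 5 against a 2-fold threshold, with 3538 under the replicate block. Leaving out 1 more library, chosen after seeing the data, gave 1281, 1003 and 829 without DKO 1, 2 and 3, 4044 without WT 2 and 3 without WT 3. Deviations of same-numbered libraries from their group means had correlations of -0.0993, -0.0331 and -0.176. With 3 libraries per group and WT libraries that stand apart, these values cannot tell whether the numbers pair them. Called genes within 5 Mb and 20 Mb of Bgn or Dcn numbered 0 and 2, against 1 within 10 Mb, and without WT 1 94 within 20 Mb, against 40.

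Some list members reversed, and the cause was not tested. With voom and sample weights Prelp had 0.983, Col6a3 0.952, Tll1 3.49, Lamb3 1.21, Fbn1 0.736, Itgav 0.908, Itga6 0.57 and Parp9 1.0. With 1 library left out, the log2 fold changes ranged from -0.87 to 1.27 for Prelp, -0.385 to 1.15 for Col6a3, -1.29 to 1.57 for Lamb3, -0.391 to 1.13 for Itgav, -0.383 to 0.783 for Itga6, -0.408 to 1.15 for Parp9 and -1.5 to 4.24 for Hba-a2. The highest value was that without WT 1 in each.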
